A study of Mus musculus with 32 samples.

Results

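The DNA replication licensing genes were followed in donor T cells from a mouse transplantation model of graft-versus-host disease (GVHD), the attack of transplanted T cells on the tissues of a mismatched recipient. The set is Mcm2, Mcm3, Mcm4, Mcm5, Mcm6, Mcm7, Mcm10, Cdt1, Cdc6 and Gmnn, chosen by gene symbol. All 10 were found among the 16741 genes of the expression table, and all 10 passed the minimum mean value of 1. T cells of C57Bl6 mice were transplanted, and bulk RNA was measured in 31 libraries of CD4 conventional T cells (CD4), CD8 T cells (CD8) and regulatory T cells (Treg, the suppressive CD4 lineage), all from spleen and lymph nodes. Pretransplant cells gave 2 libraries of each cell type (day 0). Syngeneic control recipients, which received no Treg, gave 3 CD4 and 3 CD8 libraries. Allogeneic recipients were Balb/c mice with a major mismatch. Those without Treg (allogeneic) gave 4 CD4 and 4 CD8 libraries. Those given Treg on day 0 (Treg-treated) gave 4 CD4, 4 CD8 and 3 Treg libraries. The sample titles place the cells recovered after transplantation at day 6, the series design at day 8. Age, sort gates, conditioning of the recipients and the number of animals behind a library are not given in the sources used here, so p-values measure only the spread between these libraries, which may be technical. Replicate labels carry the prefix JL019 or JL027 and, where a prefix has more than 1 library of a cell type and arm, a number.

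A cell prepares its DNA replication origins before S phase, a step called licensing. The origin recognition complex marks the origins, and Cdc6 and Cdt1 then load the ring of Mcm2 to Mcm7, the core of the replicative helicase, in an inactive form. Mcm10 takes part in turning the loaded helicase on. Geminin, the product of Gmnn, binds Cdt1 in S and G2 phase and blocks further loading, so that each origin fires once per cycle. Resting T cells carry low levels of these factors and make them on activation, largely as targets of E2F transcription factors, before they divide.

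The promoters of the members are shown because E2F-type sequences are a known shared feature of this family. RefSeq windows (GRCm38.p6) of 250 bases before to 50 bases after a start site were matched by symbol for 8 of the 10 genes, in 9 windows. Mcm4 and Gmnn had no window. The letters TTTCCCGC, TTTCGCGC, TTTGCCGC or TTTGGCGC, on either strand, occurred in 6 of the 9 windows, of 6 of the 8 genes, against 2.26% of all 32851 windows. The letters CCAAT occurred in 7 of the 9 windows, against 37.4% of all, and TTTGAA, the core of the cell cycle homology region, in 1 of 9, against 17.9%. The stretch just before the annotated gene is printed 5′ to 3′ for 3 genes, with the E2F-type letters in capitals where 1 match or 2 overlapping matches occur. Mcm6 had the most matches, Mcm5 has 2 overlapping ones on opposite strands, and Mcm10, which was among the members with the largest changes reported below, has none of these letters in its window.
Mcm6 (chr1:128359706-128359885, minus strand): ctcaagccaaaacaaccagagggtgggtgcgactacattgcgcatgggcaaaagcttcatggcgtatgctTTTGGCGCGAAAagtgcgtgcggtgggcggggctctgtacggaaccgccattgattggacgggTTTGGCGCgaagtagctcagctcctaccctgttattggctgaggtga
Mcm5 (chr8:75109329-75109467, plus strand): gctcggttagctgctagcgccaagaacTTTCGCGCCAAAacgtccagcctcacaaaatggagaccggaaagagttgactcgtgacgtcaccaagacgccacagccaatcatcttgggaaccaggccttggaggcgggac
Mcm10 (chr2:5012792-5012971, minus strand): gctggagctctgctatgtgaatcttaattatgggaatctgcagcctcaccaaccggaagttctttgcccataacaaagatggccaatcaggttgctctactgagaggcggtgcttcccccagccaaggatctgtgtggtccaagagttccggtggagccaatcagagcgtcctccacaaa
In Mcm6, 2 of the 3 matches overlap. A match is only a match of letters, and binding was not measured.

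Most libraries held the lineage markers of their label, with exceptions that bear on the results. Summed CD8 lineage markers (Cd8a and Cd8b1) were 57637 to 81662 in CD8 allogeneic and 357 to 605 in CD4 allogeneic libraries. CD4 syngeneic JL019-2 stood apart: Cd4 was 1659, against 16526 and 14576 in the other 2 libraries of its group, and the 12 myeloid markers summed to 3672340, against 90867 and 81678. Foxp3, the defining gene of Treg, was 198 and 442 in day 0 Treg, below the 1145 and 978 of day 0 CD4 cells, whereas the 6 Treg markers together summed to 58438 to 59927 in day 0 Treg and 10320.3 to 11055 in day 0 CD4 cells. In Treg of Treg-treated recipients Foxp3 was 265 to 293, above the 127 to 178 of CD4 Treg-treated libraries but below every CD4 allogeneic library (337 to 579), and CD8 allogeneic libraries held 103 to 453. Treg of both kinds are named here by their label. Libraries also differed in how their values varied with gene length. The slope of a library's log2 deviation from the gene means on the log2 gene span is called the length trend here. It was under -0.04 in 8 libraries: CD4 Treg-treated JL019-1, JL019-2 and JL027-2, CD8 Treg-treated JL019-2 and JL027-2, CD8 syngeneic JL019-1 and JL027, and CD4 syngeneic JL019-2. Wherever steep libraries are left out below, all 8 were left out of the fit together. This also changes the estimate of spread that all groups share, so counts can move in groups that lost no library. The values in the table are counts normalised between libraries, from which reads were not recovered, so the depth is unknown. The mean value per gene lay between 1227 and 2385 over the libraries.

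The values of each member follow in normalised counts, library by library, in the order JL019-1, JL019-2, JL027-1 and JL027-2 for groups of 4, JL019-1, JL019-2 and JL027 for groups of 3, and JL019 and JL027 at day 0. They compare libraries within a gene, not 1 gene with another. All positions are those of RefSeq on GRCm38.p6.

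The helicase loader Cdc6 (ENSMUSG00000017499, chromosome 11, 98907709-98923942) brings the Mcm ring to the origin recognition complex. Cdc6 in CD4 cells stood at 186 and 208 at day 0, 2670.3, 2583 and 2315 in syngeneic, 1164, 1302, 1643 and 1653 in allogeneic and 1436, 1415, 2791 and 1580.2 in Treg-treated recipients. In CD8 cells the Cdc6 values were 1093 and 1109 at day 0, 2591, 2148 and 2099 in syngeneic, 2565, 3275, 3704 and 2845 in allogeneic and 4136, 2494, 4623 and 4536 in Treg-treated recipients. Treg had 129 and 186 before transplantation and 1178, 923 and 1069.6 after it. Day 0 CD4 and day 0 Treg libraries were the 4 lowest of all 31, and day 0 CD8 libraries lay several-fold above them, near the lowest recovered Treg and CD4 allogeneic libraries. From the lowest group mean of Cdc6 (Treg day 0) to the highest (CD8 Treg-treated) the ratio was 25.1, and 3 of 9 neighbouring groups in that order had ranges that did not overlap. Cdt1 (ENSMUSG00000006585, chromosome 8, 122568015-122573130) is the partner of Cdc6 in loading and the target of geminin. CD4 libraries held Cdt1 at 634 and 458 (day 0), 1426, 953 and 1016 (syngeneic), 1058, 861, 607 and 922 (allogeneic) and 682, 890.1, 575 and 633 (Treg-treated). CD8 libraries held Cdt1 at 752 and 699.6, 1645, 1491 and 1359.98, 1225, 1882, 654 and 1596 and 1669, 832, 1331 and 1551 in the same order of groups. The Treg values of Cdt1 were 261 and 381 at day 0 and 657, 472 and 583 in Treg-treated recipients. Fewer neighbouring groups were apart for Cdt1 than for any other member. CD4 allogeneic JL027-1 lay below the higher day 0 CD4 library, and CD8 allogeneic JL027-1 below both day 0 CD8 libraries. The group means of Cdt1 spanned 4.67-fold, lowest in Treg day 0 and highest in CD8 syngeneic, with 1 of 9 neighbours in the order of means not overlapping.

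Gmnn (ENSMUSG00000006715, chromosome 13, 24751845-24761937) encodes geminin, the inhibitor of Cdt1. For Gmnn, the CD4 values were 384 and 343 at day 0, 2142, 4303 and 2022 in syngeneic, 1649, 1420.2, 2182 and 2035 in allogeneic and 3400.4, 4752, 2458 and 3815 in Treg-treated recipients. The CD8 values of Gmnn were 941 and 1198, 2571, 2009 and 3757, 3097, 3255, 5363 and 3600.1 and 3461, 8806, 4495 and 5733 in these groups. Gmnn in Treg lay at 521 and 520.1 before and 1507, 1506 and 1473 after transplantation. The highest Gmnn library of all was CD8 Treg-treated JL019-2, and the CD4 Treg-treated group did not overlap with the CD4 allogeneic one. Recovered Treg had nearly equal values in the 3 libraries. Ordered by mean, the groups of Gmnn ran from CD4 day 0 to CD8 Treg-treated, 15.5-fold apart, and 3 of 9 neighbours in that order did not overlap.

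Mcm2 (ENSMUSG00000002870, chromosome 6, 88883474-88898780), Mcm3 (ENSMUSG00000041859, chromosome 1, 20802966-20820312) and Mcm5 (ENSMUSG00000005410, chromosome 8, 75109468-75128439) are subunits of the helicase ring. Mcm2 in CD4 cells stood at 2508 and 2137 at day 0, 9878, 3065 and 6636 in syngeneic, 5214, 4584, 4256 and 5866 in allogeneic and 2091, 2005, 5058 and 2434 in Treg-treated recipients. In CD8 cells the Mcm2 values were 2855 and 3294 at day 0, 9929.6, 10137 and 4268 in syngeneic, 7537, 10315, 4253 and 10906 in allogeneic and 11116, 2325, 12689 and 8664 in Treg-treated recipients. Treg had 1366 and 1950.1 before transplantation and 3338, 2449 and 3979.6 after it. Within CD4 Treg-treated recipients JL027-1 was as high as allogeneic libraries while the other 3 lay near the day 0 values, and in CD8 Treg-treated recipients JL019-2 was the only library below day 0. From the lowest group mean of Mcm2 (Treg day 0) to the highest (CD8 Treg-treated) the ratio was 5.25, and 2 of 9 neighbouring groups in that order had ranges that did not overlap. CD4 libraries held Mcm3 at 2119 and 1866 (day 0), 12219, 4854 and 7942 (syngeneic), 7412, 6948, 6065 and 8479.9 (allogeneic) and 4822, 4114, 7302 and 4129.9 (Treg-treated). CD8 libraries held Mcm3 at 2801 and 3042, 13044, 11446 and 6221, 10756, 15555, 7445 and 14705 and 14729, 5196, 14995 and 12762 in the same order of groups. The Treg values of Mcm3 were 1512 and 1895 at day 0 and 3996, 3488 and 4536 in Treg-treated recipients. Every recovered library exceeded the day 0 libraries of its own cell type for Mcm3. The group means of Mcm3 spanned 7.11-fold, lowest in Treg day 0 and highest in CD8 allogeneic, with 2 of 9 neighbours in the order of means not overlapping. For Mcm5, the CD4 values were 1936 and 1795 at day 0, 13207, 6711 and 8907 in syngeneic, 7401, 6848, 6372 and 8569.99 in allogeneic and 5314, 4865, 8868 and 5369.98 in Treg-treated recipients. The CD8 values of Mcm5 were 2943 and 3804, 14291, 11799 and 7674, 12610.1, 16278, 8978 and 15528 and 17317, 6639.8, 17269.8 and 17855 in these groups. Mcm5 in Treg lay at 1381 and 1802 before and 4988, 3904 and 4877 after transplantation. The same library stood apart in the CD8 Treg-treated group, JL019-2, far below the others. Ordered by mean, the groups of Mcm5 ran from Treg day 0 to CD8 Treg-treated, 9.28-fold apart, and 2 of 9 neighbours in that order did not overlap.

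The other ring subunits are Mcm4 (ENSMUSG00000022673, chromosome 16, 15623897-15637400), Mcm6 (ENSMUSG00000026355, chromosome 1, 128331575-128359705) and Mcm7 (ENSMUSG00000029730, chromosome 5, 138164583-138172111). Mcm4 in CD4 cells stood at 3426 and 3378 at day 0, 9450.1, 3775 and 9497 in syngeneic, 6027, 5780.1, 7539 and 7739 in allogeneic and 3097, 2909.5, 9544 and 3693 in Treg-treated recipients. In CD8 cells the Mcm4 values were 3510.2 and 3992 at day 0, 9093, 9139 and 5318 in syngeneic, 10044, 11229, 13739 and 11835 in allogeneic and 12918, 4977, 13871 and 12719.5 in Treg-treated recipients. Treg had 2438 and 3332 before transplantation and 6390.2, 6127 and 5596 after it. For Mcm4, 2 of the 4 CD4 Treg-treated libraries were below both day 0 CD4 libraries, and JL027-1 was the highest CD4 library of all. From the lowest group mean of Mcm4 (Treg day 0) to the highest (CD8 allogeneic) the ratio was 4.06, and 2 of 9 neighbouring groups in that order had ranges that did not overlap. CD4 libraries held Mcm6 at 4949 and 4865 (day 0), 16855, 8662 and 14743 (syngeneic), 12353, 11432, 14653 and 15529 (allogeneic) and 7545, 6787, 19455 and 9047 (Treg-treated). CD8 libraries held Mcm6 at 8018 and 10038, 21379.7, 19773 and 13671, 20242, 24628, 28184 and 23799.9 and 25351, 10231, 27164 and 26185 in the same order of groups. The Treg values of Mcm6 were 5861 and 6184 at day 0 and 11824, 10593 and 10327 in Treg-treated recipients. CD4 Treg-treated JL027-1 again exceeded every other CD4 library. The group means of Mcm6 spanned 4.93-fold, lowest in CD4 day 0 and highest in CD8 allogeneic, with 2 of 9 neighbours in the order of means not overlapping. For Mcm7, the CD4 values were 3006 and 2903 at day 0, 9886, 7531 and 9155 in syngeneic, 6300.4, 6265, 6283 and 7365 in allogeneic and 4411, 4560.1, 7836 and 4936 in Treg-treated recipients. The CD8 values of Mcm7 were 4117 and 5117, 10407, 9349 and 8243, 11006, 12659.8, 12445 and 11959 and 13015, 7704, 13033 and 15102 in these groups. Mcm7 in Treg lay at 1760 and 2298 before and 5014, 4659 and 4147 after transplantation. Mcm7 separated its groups more often than the other ring subunits. Ordered by mean, the groups of Mcm7 ran from Treg day 0 to CD8 Treg-treated, 6.02-fold apart, and 4 of 9 neighbours in that order did not overlap.

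Mcm10 (ENSMUSG00000026669, chromosome 2, 4990724-5012791) is not part of the ring but joins the helicase as it is activated. Mcm10 in CD4 cells stood at 111 and 128 at day 0, 1662, 894 and 1221 in syngeneic, 879, 834, 880.2 and 1019.8 in allogeneic and 526, 523, 1293 and 650.1 in Treg-treated recipients. In CD8 cells the Mcm10 values were 422 and 452 at day 0, 1010.4, 1047 and 579 in syngeneic, 1699.5, 2177, 1856 and 2102 in allogeneic and 2286, 878, 2858 and 2249.9 in Treg-treated recipients. Treg had 101 and 192 before transplantation and 774, 647 and 798 after it. Day 0 libraries of CD4 cells and Treg held the 4 lowest values of all, and the day 0 CD8 libraries followed them. From the lowest group mean of Mcm10 (CD4 day 0) to the highest (CD8 Treg-treated) the ratio was 17.3, and 3 of 9 neighbouring groups in that order had ranges that did not overlap.

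**Figure D1:**
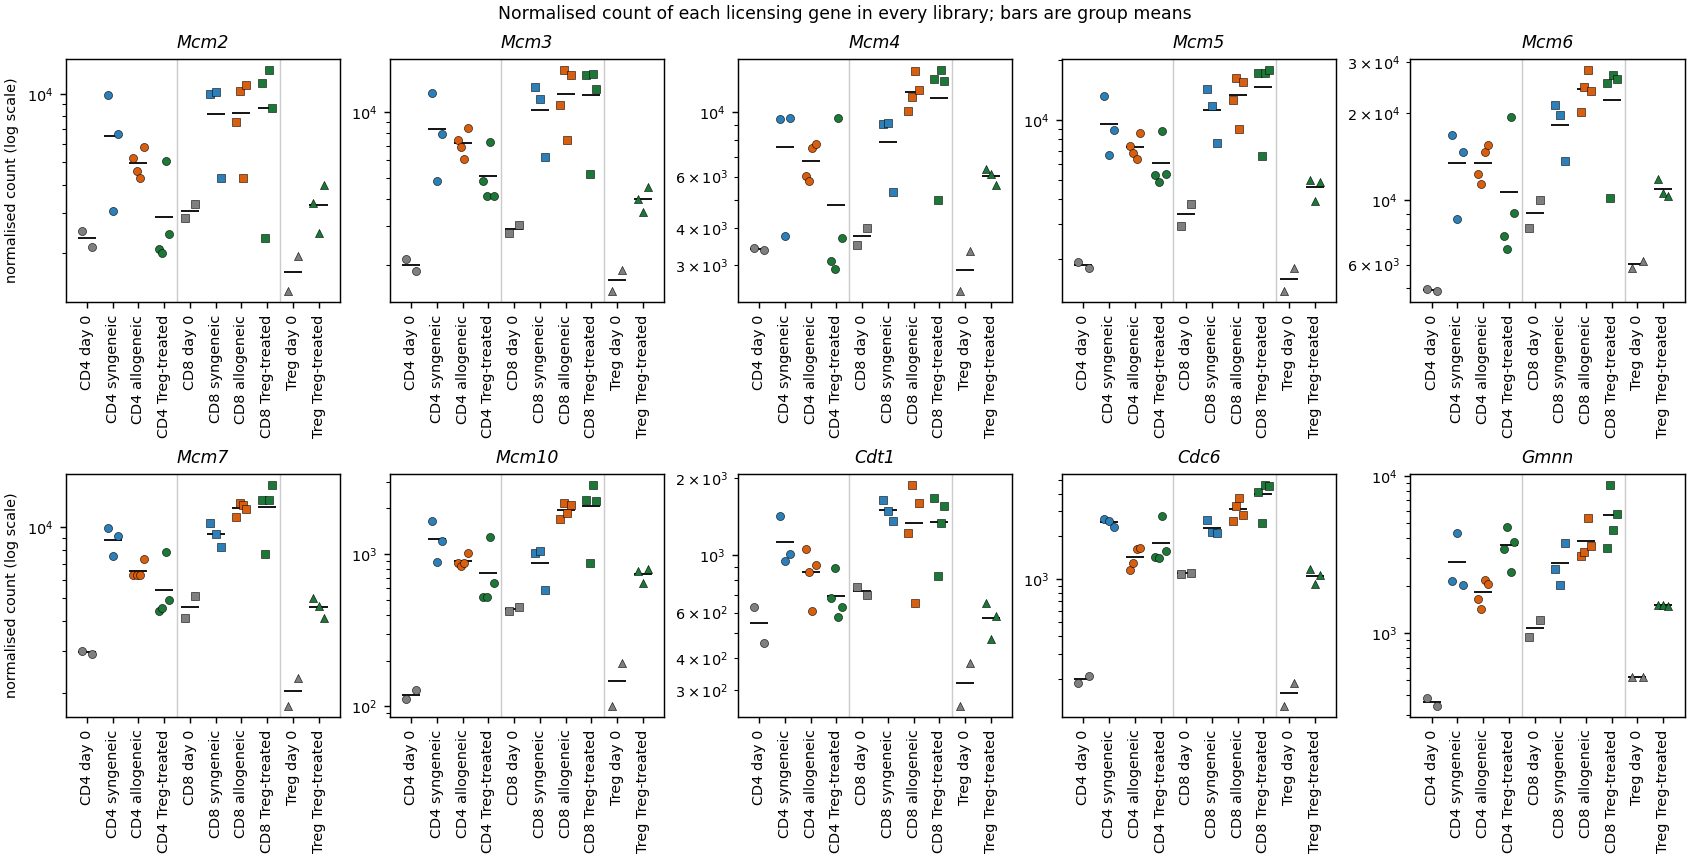
Normalised count of each licensing gene (log axis) in the 10 groups. Each point is 1 library (circles CD4, squares CD8, triangles Treg) and each bar a group mean. Day 0 groups are lowest in most panels, and in the Treg-treated groups CD4 JL027-1 is high and CD8 JL019-2 low for Mcm2 to Mcm7.

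Conventional T cells recovered after transplantation were compared with the cells before it, in both hosts. In CD4 cells of allogeneic recipients 7 of the 10 members rose, and none was called lower, against 14.4% of all 16741 genes called higher (limma, adjusted p under 0.05, Benjamini-Hochberg over all genes tested). The members' median change was 1.65 on the log2(value + 1) scale, against -0.04 over all genes. Mcm10 rose 7.48-fold, from 119.8 ± 11.9 (SD, n = 2) to 903 ± 80.6 (SD, n = 4) (log2 2.90, SE 0.375, limma adjusted p 9.92e-07). Cdc6 rose 7.19-fold, from 197 ± 15.6 (SD, n = 2) to 1440.4 ± 246 (SD, n = 4) (log2 2.85, SE 0.26, limma adjusted p 2.15e-09). Gmnn rose 4.94-fold (log2 2.31, SE 0.33, limma adjusted p 5e-06). Among the ring subunits Mcm3 (log2 1.85), Mcm5 (1.96), Mcm6 (1.45) and Mcm7 (1.15) rose. Mcm2 (log2 1.09, limma adjusted p 0.142) and Mcm4 (log2 0.98, limma adjusted p 0.084) did not pass the test. No allogeneic library overlapped with day 0 for either, which is given as a description. Cdt1 had a log2 change of 0.65 (limma adjusted p 0.165).

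CD8 cells of allogeneic recipients had 8 of 10 members called higher and none lower, against 16.3% of all genes called higher, with a median log2 change of 1.56. Mcm10 led again, from 437 ± 21.4 (SD, n = 2) to 1959 ± 221 (SD, n = 4) (log2 2.16, SE 0.375, limma adjusted p 6.72e-05). Mcm3 (log2 1.99), Mcm5 (1.96), Gmnn (1.81), Mcm4 (1.64), Cdc6 (1.48), Mcm6 (1.42) and Mcm7 (1.39) also rose. Mcm2 (log2 1.34, limma adjusted p 0.0537) and Cdt1 (log2 0.78, limma adjusted p 0.0712) did not pass, and both passed without CD8 allogeneic JL027-1, which was the lowest allogeneic library for them (log2 1.63, limma adjusted p 0.0232 for Mcm2, and log2 1.09, limma adjusted p 0.00572 for Cdt1). Mcm6 did not pass without CD8 day 0 JL019 (log2 1.26, limma adjusted p 0.0629).

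In syngeneic recipients CD4 cells had 8 of 10 members called higher, against 9.9% of all genes, and a median log2 change of 1.77. Cdc6 rose 12.7-fold, from 197 ± 15.6 (SD, n = 2) to 2523 ± 185 (SD, n = 3) (log2 3.67, SE 0.274, limma adjusted p 9.9e-11), the largest change of any member in the 20 comparisons made. Mcm10 rose 10.1-fold (log2 3.34, SE 0.395, limma adjusted p 4.91e-07) and Gmnn 7.30-fold (log2 2.87, SE 0.348, limma adjusted p 7.53e-07). Mcm5 (2.31), Mcm3 (1.97), Mcm7 (1.57), Mcm6 (1.40) and Cdt1 (1.05, all log2) rose less. Mcm2 (log2 1.34, limma adjusted p 0.111) and Mcm4 (log2 1.03, limma adjusted p 0.115) did not pass. Centring each library on its median moved the median of all genes by -0.19 here and the count stayed 8. Without CD4 syngeneic JL019-2, 9 were called, with Mcm2 (log2 1.81, limma adjusted p 0.0483) and Mcm4 (log2 1.48, limma adjusted p 0.0262) added and Cdt1 lost. Cdt1 was not called without any 1 of CD4 day 0 JL019 or JL027 or CD4 syngeneic JL019-1 or JL019-2 (limma adjusted p 0.0567 to 0.351), nor Mcm6 without any 1 of CD4 day 0 JL019 or JL027 (limma adjusted p 0.0895 to 0.101). With only the 2 groups compared in the model 5 were called.

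CD8 cells of syngeneic recipients had 6 of 10 called higher, against 13% of all genes, with the smallest median of the 4 comparisons, a log2 change of 1.04. Mcm3 rose from 2921 ± 170.4 (SD, n = 2) to 10237 ± 3568 (SD, n = 3) (log2 1.74, SE 0.4, limma adjusted p 0.00314) and Mcm5 from 3373 ± 609 (SD, n = 2) to 11254 ± 3342 (SD, n = 3) (log2 1.70, SE 0.361, limma adjusted p 0.00155). Gmnn (log2 1.34), Cdt1 (1.04), Cdc6 (1.04) and Mcm7 (1.02) rose as well. Mcm10 had a log2 change of 0.96 (limma adjusted p 0.0745), Mcm2 of 1.30 (0.0833), Mcm4 of 1.02 (0.0797) and Mcm6 of 1.00 (0.0502). The count rested on 1 library: without CD8 day 0 JL019, 1 member, Mcm5, was called. Cdt1 was not called without any 1 of CD8 day 0 JL019 or JL027 or CD8 syngeneic JL019-1 or JL027 (limma adjusted p 0.0553 to 0.153) and Gmnn without any 1 of CD8 day 0 JL019 or CD8 syngeneic JL027 (limma adjusted p 0.0504 to 0.126). Without the 8 libraries of steep length trend, 2 of them CD8 syngeneic, 1 library of this group is left. All 10 members were then higher, with a median log2 change of 1.20, and Cdt1 had one of 1.04. The array weights of the sensitivity analysis and centring on medians both gave 10 members called.

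Markers of other cells moved with these changes. The 12 myeloid markers summed to 1369 to 2145 in CD4 day 0, 5888 to 11647 in CD4 allogeneic and 81678 to 3672340 in CD4 syngeneic libraries, and to 6382 to 6678, 6944 to 11199 and 39222 to 62294 in CD8 cells. Cd14 was at 0 in both CD4 day 0 libraries. The 10 erythroid markers summed to 1601 to 2158, 1756 to 12210.2 and 6957 to 472669 in the CD4 groups and to 35505 to 40188, 2075 to 16854 and 4936 to 12301 in the CD8 groups. NK markers summed to 530.2 to 599, 519 to 680.1 and 554 to 1722 in the CD4 groups and to 1536 to 1791, 2011 to 2461 and 7787 to 8627 in the CD8 groups. B cell markers summed to 558 to 773, 948 to 1385 and 276 to 1682 in CD4 and to 2022 to 2713, 1152 to 1279 and 3282 to 4075 in CD8 cells. The CD8 syngeneic libraries had the highest sums of both lists. Their part in the results was not tested. In these bulk libraries more cells in cycle and more licensing RNA per cell cannot be told apart. Within each prefix all 10 members were higher in allogeneic than in day 0 libraries, in CD4 cells (median log2 1.51 in JL019 and 1.79 in JL027) and in CD8 cells (1.61 and 1.59). The comparisons share the day 0 libraries within a cell type.

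**Figure D2:**
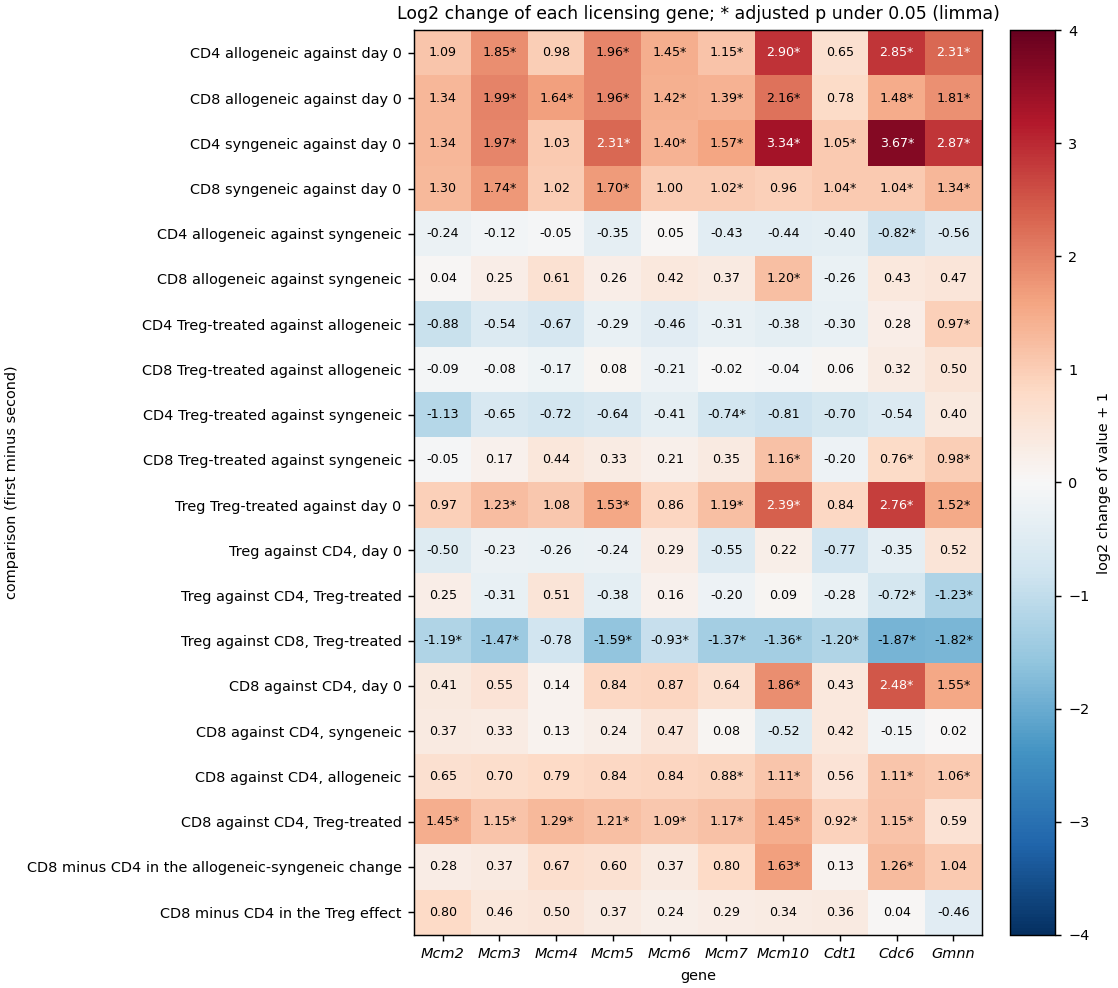
Log2 change of each member (columns) in the 20 comparisons (rows), with colour from -4 to 4 and an asterisk where limma's adjusted p was under 0.05. The rows against day 0 are red for all 10 members, and the rows of allogeneic against syngeneic and of Treg-treated against allogeneic hold few asterisks.

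Treg recovered from Treg-treated recipients were compared with Treg before transplantation, and 6 of 10 members rose, against 8.43% of all genes called higher. The median log2 change was 1.21. Cdc6 rose 6.76-fold, from 157 ± 40.1 (SD, n = 2) to 1057 ± 128 (SD, n = 3) (log2 2.76, SE 0.274, limma adjusted p 4.5e-08), and Mcm10 5.25-fold, from 147 ± 64.0 (SD, n = 2) to 739.8 ± 81.2 (SD, n = 3) (log2 2.39, SE 0.395, limma adjusted p 8.37e-05). Gmnn rose 2.87-fold (log2 1.52, SE 0.348, limma adjusted p 0.0031). Of the ring, Mcm5 (log2 1.53), Mcm3 (1.23) and Mcm7 (1.19) rose, and Mcm4 (1.08), Mcm2 (0.97) and Mcm6 (0.86) did not pass, with limma adjusted p of 0.104, 0.297 and 0.143. Cdt1 had a log2 change of 0.84 (limma adjusted p 0.116). The 3 recovered libraries lay above both day 0 libraries for every one of the 10 members. How many of all genes were separated in this way was not counted, so no result is read from it. Without Treg day 0 JL019 3 members were called, with Mcm3, Mcm5 and Mcm7 lost, and 10 with array weights. Mcm3 was not called without any 1 of Treg day 0 JL019 or JL027 or Treg-treated Treg JL019-1, JL019-2 or JL027 (limma adjusted p 0.0573 to 0.285). Erythroid markers summed to 1129.8 to 1339.9 before and 3196 to 51575 after transplantation and B cell markers to 1095 to 1306 and 609 to 912, and their part was not tested.

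Cell types were then compared within each arm. Before transplantation CD8 cells held more licensing RNA than CD4 cells for 3 of 10 members, against 2.22% of all genes called higher. Cdc6 was 5.56-fold higher, at 1101 ± 11.5 (SD, n = 2) against 197 ± 15.6 (SD, n = 2) (log2 2.48, SE 0.3, limma adjusted p 3.51e-06). Mcm10 was 3.63-fold higher (log2 1.86, SE 0.433, limma adjusted p 0.0105) and Gmnn 2.92-fold (log2 1.55, SE 0.381, limma adjusted p 0.0163). The ring subunits differed by log2 0.14 to 0.87 and Cdt1 by 0.43, with none past the test (limma adjusted p 0.29 to 0.979). The groups did not overlap for any member, but groups of 2 libraries separate easily. The share of all genes so separated was not counted, and no difference is read from it. The sign of Mcm4 turned on centring. Leaving out any 1 of the 4 libraries left Cdc6 as the 1 member called: the count was 1 without CD4 day 0 JL019, 1 without CD4 day 0 JL027, 1 without CD8 day 0 JL019 and 1 without CD8 day 0 JL027. Erythroid genes moved with this difference. All 10 erythroid markers were higher in both day 0 CD8 than in both day 0 CD4 libraries, with sums of 35505 to 40188 against 1601 to 2158. Klf1, an erythroid transcription factor, was 1513 and 1660.3 against 238 and 252. The 7 B cell markers in the table of 8 listed summed to 2022 to 2713 against 558 to 773, the 12 myeloid markers to 6382 to 6678 against 1369 to 2145, and the 5 NK markers to 1536 to 1791 against 530.2 to 599. The part of these cells in the result was not tested.

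In allogeneic recipients 4 of 10 members were called higher in CD8 than in CD4 cells, against 3.05% of all genes, and the median log2 difference was 0.84. Cdc6 was at 3097 ± 499 (SD, n = 4) against 1440.4 ± 246 (SD, n = 4) (log2 1.11, SE 0.212, limma adjusted p 0.00119), Mcm10 at 1959 ± 221 (SD, n = 4) against 903 ± 80.6 (SD, n = 4) (log2 1.11, SE 0.306, limma adjusted p 0.0256). Gmnn (log2 1.06) and Mcm7 (0.88) were the others. The 4 CD8 libraries lay above all 4 CD4 libraries for 7 of the 10 members. The share of all genes separated like this was not counted, and the 7 are given as a description. NK markers summed to 2011 to 2461 in CD8 and 519 to 680.1 in CD4 libraries. Of these markers 3 of 5, Eomes, Klre1 and Klrb1c, had the higher mean in CD8 cells, Ncr1 and Klra8 had the lower, and their part was not tested. The differences of the 6 uncalled members were log2 0.56 to 0.84. Without CD4 allogeneic JL019-1 or CD4 allogeneic JL019-2 the count was 2 and 2, and without the 8 libraries of steep length trend, none of which is in these groups, 8. Mcm10 was not called without any 1 of CD4 allogeneic JL019-1, JL019-2 or JL027-1 or CD8 allogeneic JL019-2, JL027-1 or JL027-2 (limma adjusted p 0.051 to 0.0763) and Gmnn without any 1 of CD4 allogeneic JL019-1 or JL019-2 or CD8 allogeneic JL027-1 (limma adjusted p 0.0509 to 0.077). Cdc6 and Mcm7 stayed called without any 1 library.

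In Treg-treated recipients 9 of 10 members were called higher in CD8 than in CD4 cells, against 4.9% of all genes, with a median log2 difference of 1.16. All 6 ring subunits were among them, at log2 1.09 to 1.45. Mcm2 was at 8699 ± 4560.3 (SD, n = 4) against 2897 ± 1452 (SD, n = 4) (log2 1.45, SE 0.427, limma adjusted p 0.0298), Mcm10 at 2068 ± 841 (SD, n = 4) against 748 ± 368 (SD, n = 4) (log2 1.45, SE 0.306, limma adjusted p 0.00209). Cdc6 (log2 1.15) and Cdt1 (0.92) were higher too, and Gmnn did not pass (log2 0.59, limma adjusted p 0.184). The groups overlapped for every member. CD8 JL019-2 was the lowest CD8 library for 9 of them and CD4 JL027-1 the highest CD4 library for 8. All 10 members were higher in CD8 cells in both prefixes (median log2 1.16 in JL019 and 1.21 in JL027). The count was 5 without CD4 Treg-treated JL019-1, 5 without CD4 Treg-treated JL019-2, 5 without CD8 Treg-treated JL019-1, 4 without CD8 Treg-treated JL027-1 and 5 without CD8 Treg-treated JL027-2. Mcm5, Mcm7, Mcm10 and Cdc6 stayed called without any 1 library, and Mcm2, Mcm3, Mcm4, Mcm6 and Cdt1 did not. Without the 5 libraries of steep length trend in these groups, which leaves 1 CD4 and 2 CD8 libraries, it was 1, with 10 of 10 members higher in CD8 cells and a median of 0.85. It was 4 after quantile normalisation and 1 with only these groups in the model. B cell markers summed to 1341 to 2135 in CD8 and 612 to 1134 in CD4 libraries, a gap carried by Cd79b (1166 against 186 on average), and 2 of 7 markers, Cd79b and Blnk, had the higher mean in CD8 cells. NK markers summed to 1862 to 3417 and 426 to 601, with 5 of 5 higher in CD8 cells. Their part was not tested.

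Syngeneic recipients showed no called member in this comparison of cell types (0 of 10 by limma, 0 at an unadjusted p under 0.05, against 12% of all genes called). Differences ran from log2 -0.52 (Mcm10) to 0.47 (Mcm6), with standard errors of 0.217 to 0.493. Centring on medians moved the median of all genes by 0.15, and the sign of Cdc6 turned with it. Quantile normalisation turned the signs of Mcm4, Mcm5, Mcm7 and Gmnn. B cell markers summed to 3282 to 4075 in CD8 and 276 to 1682 in CD4 syngeneic libraries, although only 2 of 7, Cd22 and Cd79b, had the higher mean in CD8 cells. NK markers summed to 7787 to 8627 and 554 to 1722, with 4 of 5 higher in CD8 cells, Eomes and Klre1 by the most, and Ncr1 lower. The myeloid sums went the other way, at 39222 to 62294 in CD8 and 81678 to 3672340 in CD4 syngeneic libraries. Their part was not tested. Without CD4 syngeneic JL019-2 the count was also 0, and 0 without the 3 steep libraries of these groups.

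Treg and CD4 cells at day 0 differed in 0 of 10 members by limma (1 at an unadjusted p under 0.05), against 3.89% of all genes called. Differences, Treg minus CD4, ran from log2 -0.77 (Cdt1) to 0.52 (Gmnn), and Mcm10 (log2 0.22) turned sign under quantile normalisation. In Treg-treated recipients Treg held less Gmnn than the CD4 cells (1495 ± 19.3 (SD, n = 3) against 3607 ± 952 (SD, n = 4), log2 -1.23, SE 0.291, limma adjusted p 0.00282) and less Cdc6 (1057 ± 128 (SD, n = 3) against 1806 ± 661 (SD, n = 4), log2 -0.72, SE 0.229, limma adjusted p 0.0199). These were the 2 of 10 called lower, against 16.1% of all genes, and the other 8 differed by log2 -0.38 to 0.51. With so near a share, the 2 calls are read as no result about the set. The count was 1 without Treg JL019-2 and 1 without Treg JL027, with Gmnn called in both, and 1 with only these groups in the model. With the arm and number that the titles of CD4 and Treg libraries share as a block it was 1. Cdc6 was not called without any 1 of CD4 Treg-treated JL027-1 or Treg-treated Treg JL019-2 or JL027 (limma adjusted p 0.0505 to 0.0864). Without the 8 libraries of steep length trend only JL027-1 is left in the CD4 group, and all 10 members were lower in Treg. The 4 calls were then Mcm5, Mcm6, Mcm7 and Cdc6, and Gmnn was not called (log2 -0.72, limma adjusted p 0.108). Mcm6 then changed sign, from log2 0.16 to a called difference (log2 -0.84, limma adjusted p 0.0112). The signs of Mcm6 and Mcm10 also turned on centring, and those of Mcm2, Mcm4, Mcm6 and Mcm10 with the library mean as a covariate. Myeloid markers summed to 2202 to 7514 in Treg and 24469 to 89789 in CD4 libraries, 9 of 12 with the higher mean in CD4 cells. NK markers summed to 256 to 419.5 and 426 to 601, 3 of 5 with the higher mean in CD4 cells, and their part was not tested.

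Against CD8 cells of Treg-treated recipients, Treg had 9 of 10 members called lower, against 18.7% of all genes, with a median log2 difference of -1.36. Cdc6 was 3.65-fold lower, at 1057 ± 128 (SD, n = 3) against 3947 ± 992 (SD, n = 4) (log2 -1.87, SE 0.229, limma adjusted p 5.23e-07). Gmnn was 3.54-fold lower (log2 -1.82, SE 0.291, limma adjusted p 2.24e-05). The loader Cdt1 (log2 -1.20), Mcm10 (-1.36) and the ring subunits Mcm5 (-1.59), Mcm3 (-1.47), Mcm7 (-1.37), Mcm2 (-1.19) and Mcm6 (-0.93) were lower as well. Mcm4 did not pass (log2 -0.78, limma adjusted p 0.0914) and passed without CD8 Treg-treated JL019-2 (log2 -1.13, limma adjusted p 0.0117). Mcm2 was not called without any 1 of CD8 Treg-treated JL019-1, JL027-1 or JL027-2 or Treg-treated Treg JL019-1, JL019-2 or JL027 (limma adjusted p 0.0586 to 0.16), nor Mcm6 without any 1 of CD8 Treg-treated JL019-1, JL027-1 or JL027-2 or Treg-treated Treg JL019-2 or JL027 (limma adjusted p 0.0541 to 0.067). All 10 members were lower in Treg in both prefixes, and without the 8 steep libraries, 2 of them CD8 Treg-treated, 10 were called. Myeloid markers summed to 2202 to 7514 in Treg and 12073 to 32424 in CD8 libraries, and NK markers to 256 to 419.5 and 1862 to 3417. B cell markers summed to 609 to 912 and 1341 to 2135. Of these 9 of 12 myeloid, 4 of 5 NK and 3 of 7 B cell markers had the higher mean in CD8 cells. Their part was not tested.

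The host was compared next, allogeneic against syngeneic. In CD4 cells 1 of 10 members, Cdc6, fell, against 7.91% of all genes called lower. Being near that share, the count is read as no result about the set. Cdc6 was 1.77-fold lower in allogeneic recipients, at 1440.4 ± 246 (SD, n = 4) against 2523 ± 185 (SD, n = 3) (log2 -0.82, SE 0.229, limma adjusted p 0.0137), and the groups did not overlap. The other 9 members differed by log2 -0.56 to 0.05, 8 of them lower, and the sign turned for Mcm4 on centring and for Mcm6 on quantile normalisation and with the library mean as a covariate. Centring moved the median of all genes by 0.11. Cdc6 was not called without CD4 allogeneic JL019-1 (log2 -0.72, limma adjusted p 0.0543). Without CD4 syngeneic JL019-2, 1 member was called, and without the 8 libraries of steep length trend, of which it is the only one here, 4, all lower: Cdc6 (log2 -0.80, limma adjusted p 0.00463), Mcm7 (log2 -0.54, limma adjusted p 0.00802), Mcm4 (log2 -0.50, limma adjusted p 0.0332) and Mcm10 (log2 -0.66, limma adjusted p 0.035). Myeloid markers summed to 5888 to 11647 in allogeneic and 81678 to 3672340 in syngeneic CD4 libraries, 12 of 12 with the higher mean in syngeneic ones, and their part was not tested.

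In CD8 cells 1 of 10, Mcm10, rose, against 10.4% of all genes called higher. That count too is near the share and is read as no result about the set. Mcm10 was 2.29-fold higher in allogeneic recipients, at 1959 ± 221 (SD, n = 4) against 879 ± 260.2 (SD, n = 3) (log2 1.20, SE 0.331, limma adjusted p 0.00966), with all 4 allogeneic libraries above the 3 syngeneic ones. The other members differed by log2 -0.26 (Cdt1) to 0.61 (Mcm4), and the sign of Mcm2 turned with the library mean as a covariate. Mcm10 was not called without CD8 syngeneic JL027 (log2 0.92, limma adjusted p 0.098), its lowest library. Without the 8 libraries of steep length trend, which leaves 1 syngeneic library, 2 were called, Mcm10 (log2 0.90, limma adjusted p 0.0281) and Gmnn (log2 0.89, limma adjusted p 0.0233). NK markers summed to 2011 to 2461 in allogeneic and 7787 to 8627 in syngeneic CD8 libraries, with Klra8 at 0 in all 4 allogeneic ones, and myeloid markers to 6944 to 11199 and 39222 to 62294. Of these 4 of 5 NK and 10 of 12 myeloid markers had the higher mean in syngeneic libraries. B cell markers summed to 1152 to 1279 and 3282 to 4075, with 4 of 7 of higher mean in syngeneic libraries. Their part was not tested.

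The difference between the cell types was itself tested. The allogeneic-syngeneic change was larger in CD8 than in CD4 cells for 2 of 10 members, against 2.69% of all genes: Mcm10 by log2 1.63 (SE 0.468, limma adjusted p 0.0412) and Cdc6 by 1.26 (SE 0.324, limma adjusted p 0.0215). Mcm10 was -0.44 in CD4 and 1.20 in CD8 cells, and Cdc6 -0.82 and 0.43, all log2. All 10 differences of differences were above 0, with Cdt1 turning to below 0 on centring, which moved the median of all genes by -0.13. Both calls were lost without CD4 allogeneic JL019-1 or CD8 syngeneic JL027 (0 and 0 called). The count was 1 without any one of CD4 allogeneic JL019-2, JL027-1 or JL027-2, CD4 syngeneic JL019-1 or JL027, CD8 allogeneic JL019-2, JL027-1 or JL027-2, or CD8 syngeneic JL019-1, with Mcm10 the call lost, and stayed 2 without CD4 syngeneic JL019-2. Without the 3 steep syngeneic libraries it was 3.

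The effect of added Treg was read from Treg-treated against allogeneic recipients. In CD4 cells 1 of 10 members, the inhibitor Gmnn, rose, against 10.7% of all genes called higher. The count is near that share and is read as no result about the set. Gmnn was 1.95-fold higher, at 3607 ± 952 (SD, n = 4) against 1821 ± 349 (SD, n = 4) (log2 0.97, SE 0.27, limma adjusted p 0.0175), and the groups did not overlap. The 6 ring subunits had lower means without passing the test: Mcm2 by log2 -0.88 (limma adjusted p 0.133), Mcm4 by -0.67 (0.144), Mcm3 by -0.54 (0.214), Mcm6 by -0.46 (0.256), Mcm7 by -0.31 (0.242) and Mcm5 by -0.29 (0.481). Mcm10 (log2 -0.38), Cdt1 (-0.30) and Cdc6 (0.28) did not pass either. With the library mean as a covariate Gmnn was not called and the signs of Mcm5 and Mcm10 turned. Centring moved the median of all genes by 0.20, kept Gmnn as the 1 call and brought the ring subunits nearer to 0.

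These values rested on single libraries. Without CD4 Treg-treated JL027-1, the 1 library of the group whose length trend was not steep, 5 members were called: Gmnn higher, and Mcm2 (log2 -1.19, limma adjusted p 0.0389), Mcm4 (log2 -1.06, limma adjusted p 0.00852), Mcm6 (log2 -0.79, limma adjusted p 0.0214) and Mcm7 (log2 -0.50, limma adjusted p 0.033) lower. Gmnn was not called without CD4 allogeneic JL019-1, CD4 allogeneic JL019-2, CD4 Treg-treated JL019-1, CD4 Treg-treated JL019-2 or CD4 Treg-treated JL027-2 (0 members called each time). With the 3 steep libraries of the group left out, so that JL027-1 alone remained, 0 were called and 9 of 10 members were higher than in allogeneic recipients, with a median of log2 0.37 against -0.34 with all libraries. With array weights 8 were called, Gmnn higher and 7 lower, where 47.2% of all genes were called. Myeloid markers summed to 24469 to 89789 in Treg-treated and 5888 to 11647 in allogeneic CD4 libraries and erythroid markers to 6309.6 to 63472 and 1756 to 12210.2, with 8 of 12 and 9 of 10 of higher mean in Treg-treated ones. With the linear length trend removed from each library 1 member was called, Gmnn, higher, but this removal can shift the members only a little. The part of the markers of other cells was not tested. In both prefixes the mean log2 values of Gmnn and Cdc6 were higher, and those of the other 8 members lower, in Treg-treated recipients (median log2 of the 10 members -0.59 in JL019 and -0.16 in JL027).

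In CD8 cells 0 of 10 members were called by limma, and 0 at an unadjusted p under 0.05, where 0.0657% of all genes were called. Changes ran from log2 -0.21 (Mcm6) to 0.50 (Gmnn), with standard errors of 0.188 to 0.427. Treg-treated JL019-2 lay below all 4 allogeneic libraries for Mcm2, Mcm3, Mcm4, Mcm5, Mcm6, Mcm7, Mcm10 and Cdc6, and above them for Gmnn, while the other 3 Treg-treated libraries lay within or above the allogeneic range of Mcm5. The prefixes differed: 2 of 10 members had higher means in Treg-treated recipients in JL019 (median log2 -0.41) and 10 of 10 in JL027 (0.38). Signs near 0 turned with the scaling, those of Mcm2, Mcm3, Mcm7 and Mcm10 on centring, of these and Mcm4 and Mcm6 with the library mean as a covariate, and of Mcm5 on quantile normalisation, and without the 2 steep Treg-treated libraries 10 of 10 members were higher, with 0 called. The Treg effect on CD8 minus that on CD4 cells was called for 0 of 10 members (0 at an unadjusted p under 0.05), where 0.00597% of all genes were. The differences ran from log2 -0.46 (Gmnn) to 0.80 (Mcm2), the sign of Cdc6 turned under each of the 3 scalings, and with array weights 5 members were called.

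Treg-treated recipients were also set against syngeneic ones. In CD4 cells 1 of 10, Mcm7, fell, against 8.43% of all genes called lower (5436 ± 1615 (SD, n = 4) against 8857 ± 1205 (SD, n = 3), log2 -0.74, SE 0.203, limma adjusted p 0.0131), and it lost the call on centring, which moved the median of all genes by 0.27. This 1 call is near the share of all genes and is read as no result about the set. The other ring subunits differed by log2 -1.13 (Mcm2) to -0.41 (Mcm6), and the sign of Gmnn turned with the library mean as a covariate. The count was 0 without CD4 Treg-treated JL019-1, 0 without CD4 syngeneic JL019-1, 6 without CD4 Treg-treated JL027-1 and 6 without CD4 syngeneic JL019-2, all lower. Mcm7 was not called with only these groups in the model (0 called). Without the 4 steep libraries of these groups, which leaves 1 Treg-treated library, Mcm7 was not called either (log2 -0.28, limma adjusted p 0.493), 0 were, and 4 of 10 members were higher. T cell markers summed to 83993 to 167457 in Treg-treated and 30373 to 71606 in syngeneic CD4 libraries, 4 of 4 with the higher mean in Treg-treated ones. Myeloid markers summed to 24469 to 89789 and 81678 to 3672340, 12 of 12 with the higher mean in syngeneic ones. Their part was not tested. In CD8 cells 3 of 10 rose, against 9.56% of all genes: Mcm10 (log2 1.16, SE 0.331, limma adjusted p 0.0132), Gmnn (log2 0.98, SE 0.291, limma adjusted p 0.0174) and Cdc6 (log2 0.76, SE 0.229, limma adjusted p 0.0195). The count was 1 without CD8 Treg-treated JL027-1, 1 without CD8 syngeneic JL019-2 and 1 without CD8 syngeneic JL027. Mcm10 was not called without any 1 of CD8 Treg-treated JL027-1 or CD8 syngeneic JL027 (limma adjusted p 0.0573 to 0.109), Cdc6 without any 1 of CD8 Treg-treated JL027-1 or JL027-2 or CD8 syngeneic JL019-2 or JL027 (limma adjusted p 0.0637 to 0.0737) and Gmnn without any 1 of CD8 Treg-treated JL019-2 or CD8 syngeneic JL019-1 or JL019-2 (limma adjusted p 0.0628 to 0.122). The sign of Mcm2 (log2 -0.05) turned on centring. With only these groups in the model 0 were called. Without the 4 steep libraries of these groups, which leaves 1 syngeneic library, 3 were called, Mcm10 (log2 1.29, limma adjusted p 0.00556), Cdc6 (log2 1.03, limma adjusted p 0.0125) and Gmnn (log2 0.97, limma adjusted p 0.0288). Myeloid markers summed to 12073 to 32424 in these Treg-treated libraries against 39222 to 62294 in the syngeneic ones, NK markers to 1862 to 3417 against 7787 to 8627, and B cell markers to 1341 to 2135 against 3282 to 4075. The higher mean was in syngeneic libraries for 10 of 12 myeloid, 4 of 5 NK and 4 of 7 B cell markers, and their part was not tested. These comparisons share the Treg-treated and the syngeneic libraries with those above.

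How the members varied among themselves was read from the geometric mean of Mcm2 to Mcm7, taken as the level of the ring. In CD4 cells the ring level was 2839.6 and 2644 at day 0, 11658, 5392 and 9188 in syngeneic, 7155, 6698, 6965 and 8501 in allogeneic and 4204, 3917, 8838 and 4553 in Treg-treated recipients. CD8 ring levels were 3738 and 4455, 12462, 11499.9 and 7044, 11479, 14460.5, 10539 and 14254 and 15149, 5619, 15896 and 14661 in these groups. Treg had ring levels of 2039 and 2609 before and 5415, 4648 and 5257 after transplantation. The log2 ratio of Gmnn to the ring level was -2.89 and -2.94 in CD4 day 0, -2.44, -0.33 and -2.18 in CD4 syngeneic, -2.12, -2.24, -1.67 and -2.06 in CD4 allogeneic and -0.31, 0.28, -1.85 and -0.26 in CD4 Treg-treated libraries. It was highest in the CD4 libraries of steep length trend, and the mean of the CD4 Treg-treated group, -0.53 ± 0.91 (SD, n = 4), was -0.09 ± 0.32 (SD, n = 3) without JL027-1. Without JL019-2 the CD4 syngeneic mean moved from -1.65 ± 1.2 (SD, n = 3) to -2.31 ± 0.18 (SD, n = 2). In CD8 cells the ratios were -1.99 and -1.89 before transplantation, -2.28, -2.52 and -0.91 in syngeneic, -1.89, -2.15, -0.97 and -1.99 in allogeneic and -2.13, 0.65, -1.82 and -1.35 in Treg-treated recipients. The CD8 Treg-treated mean of -1.16 ± 1.2 (SD, n = 4) rested on JL019-2: without it the mean was -1.77 ± 0.39 (SD, n = 3), near the -1.75 ± 0.53 (SD, n = 4) of the allogeneic group. The ratio compares libraries and is not a ratio of molecules.

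**Figure D3:**
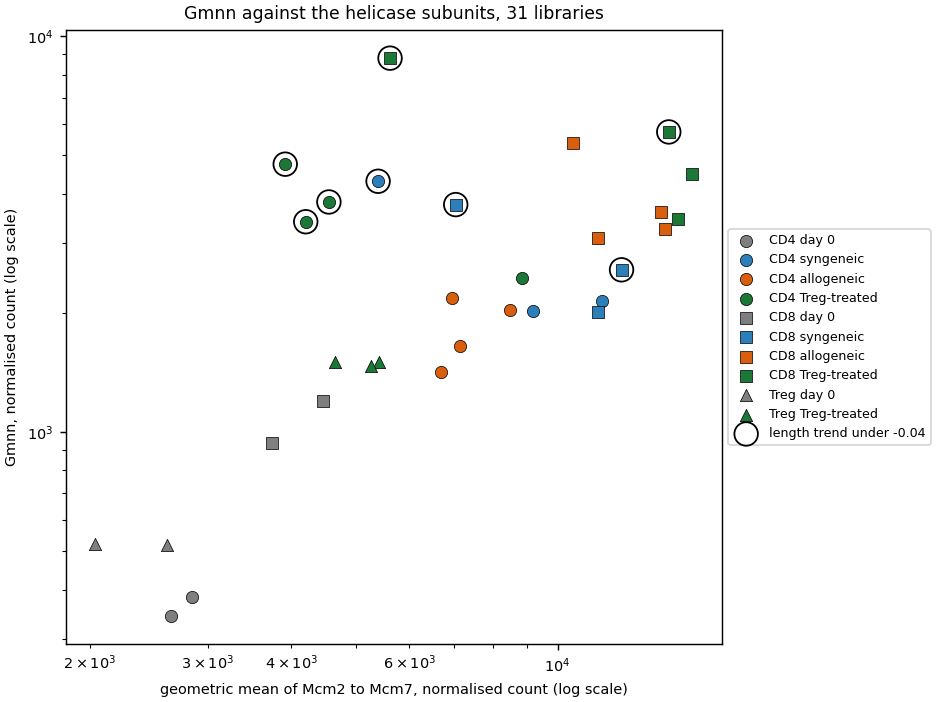
Gmnn (vertical, log axis) against the geometric mean of Mcm2 to Mcm7 (horizontal, log axis), in normalised counts, 1 point for each of the 31 libraries. Rings mark the 8 libraries with a length trend under -0.04, most of which lie above the band that the other libraries follow from lower left to upper right.

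Within groups the ring subunits moved together. Over the 31 libraries, deviations of log2 values from the group means correlated at r 0.74 to 0.98 in the 15 pairs among Mcm2 to Mcm7, and Mcm10 with the 6 subunits at 0.86 to 0.90. Cdc6 followed them at 0.53 to 0.84 and Cdt1 at 0.14 to 0.67. Gmnn went the other way, at -0.81 to -0.52. These points share libraries and normalisation, and the values are a description. The same deviations followed the length trend. For the mean of Mcm2 to Mcm7 Pearson's r was 0.840 and Spearman's rho 0.667 over the 31 libraries, 0.733 without the 2 libraries of the largest trend deviation, 0.857 in JL019 and 0.825 in JL027. For Gmnn Pearson's r was -0.878 and Spearman's rho -0.863 over the 31 libraries, -0.849 without the 2 libraries of the largest trend deviation, -0.927 in JL019 and -0.884 in JL027. Mcm7 (r 0.666), Cdc6 (0.555) and Cdt1 (0.243) followed it least, at 0.394, 0.217 and 0.211 without these 2 libraries. The annotated spans of the members run from 5.12 kb (Cdt1) to 28.1 kb (Mcm6), and 32.3% of genes with a span are shorter than Gmnn, 42.3% shorter than Mcm2. Removing the linear length trend from each library left the count of called members within 1 of the value given above in all 20 comparisons. This removal shifts a gene by the distance of its log2 span from the mean. From 20.9% (Cdt1) to 59.8% (Mcm6) of genes are shorter than a member, so the members could shift only a little. Whether the results depend on what goes with the trend is not told by it.

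**Figure D4:**
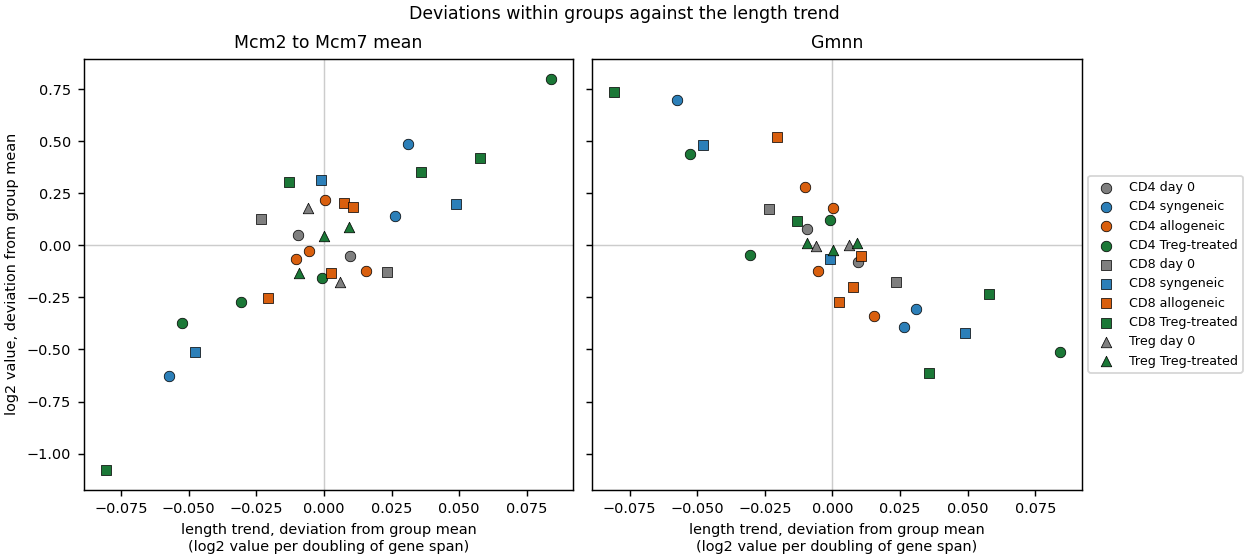
Deviation of each library from its group mean in log2 value (vertical) for the mean of Mcm2 to Mcm7 (left) and Gmnn (right), against its deviation in length trend (horizontal). The 31 points rise from left to right for the ring and fall for Gmnn.

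Other genes of the pathway were counted in lists written from general knowledge. Counts are given for CD4 allogeneic, CD8 allogeneic, CD4 syngeneic and CD8 syngeneic cells against day 0, in this order, and the shares of all genes called higher are those above. The shares of all genes called lower were 9.61%, 14.2%, 3.13% and 11.3%. Of the 6 genes of the origin recognition complex 2, 2, 2 and 1 rose and none fell. Of 13 helicase activation genes (such as Cdc45 and the Gins subunits, which join the loaded ring) 9, 10, 10 and 6 rose and none fell. Of 25 replication fork genes (polymerases, clamp and clamp loader) 18, 20, 22 and 18 rose, and of 7 genes of deoxynucleotide (dNTP) synthesis 6, 6, 7 and 6, with none falling in either. Of 11 licensing control genes (mainly ubiquitin ligase subunits) 2, 2, 3 and 1 rose and 0, 1, 0 and 1 fell. Of 16 E2F and G1/S cyclin genes 9, 11, 13 and 11 rose and 1, 1, 0 and 0 fell. Of 16 mitosis genes 16, 16, 16 and 15 rose, with median log2 changes of 3.60, 2.86, 3.79 and 1.87, against 1.65, 1.56, 1.77 and 1.04 for the 10 licensing genes and -0.04, -0.13, -0.04 and -0.10 for all genes. The loading partners upstream of the ring, the Orc genes, had medians of 0.32, 0.11, 0.32 and 0.06. Without the 8 libraries of steep length trend the syngeneic counts of rising genes were 22 and 15 of 25 for the replication fork and 16 and 14 of 16 for mitosis, in CD4 and CD8 cells. In the 4 comparisons 2, 4, 3 and 2 licensing control genes then rose and 1, 2, 0 and 0 fell, and 2, 2, 2 and 0 origin recognition genes rose. In that fit 21%, 22.8%, 10.9% and 7.14% of all genes were called higher and 15.2%, 20.1%, 3.23% and 4.74% lower, so the counts of these last lists are read as no result about them.

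In the host comparison of CD4 cells, 7 of 25 replication fork genes fell and none rose, where 7.91% of all genes were called lower and 6.69% higher. The list's median was -0.50, against -0.00 over all genes. Pole2 (log2 -0.999, limma adjusted p 0.000979), a polymerase epsilon subunit, and Clspn (log2 -1.07, limma adjusted p 0.00453), the checkpoint mediator claspin, had the lowest p. Ccnd2 (log2 -1.71, limma adjusted p 7.89e-05) and Ccne2 (log2 -1.39, limma adjusted p 8.13e-05), the D- and E-type cyclins, led the 4 of 16 E2F and G1/S cyclin genes that fell. Skp1 (log2 -0.83, limma adjusted p 0.0191) and Fbxo5 (log2 -0.59, limma adjusted p 0.0204) were the 2 of 11 licensing control genes that fell, and Top2a (log2 -0.65, limma adjusted p 0.0117) the 1 of 16 mitosis genes. These last counts are small and are read as no result about their lists. No gene of the origin recognition complex or of helicase activation was called. Without CD4 syngeneic JL019-2 and the other steep libraries 5 of the 25 replication fork genes fell and 1 rose, and 1 helicase activation gene fell, against 8.33% of all genes called lower and 8.35% higher in that fit. The myeloid sums of these groups given above stand beside these counts. In CD8 cells 10 of 16 mitosis genes rose and none fell, with Ccnb1 (log2 1.72, limma adjusted p 7.41e-07) and Ccnb2 (log2 1.60, limma adjusted p 1.89e-06), the B-type cyclins, at the lowest p. The list's median was 1.06, against 0.02 over all genes, of which 10.4% were called higher and 10.7% lower. Of the helicase activation genes 3 of 13 rose, Dbf4 (log2 1.10, limma adjusted p 1.57e-05), the activator of the Cdc7 kinase, and Mtbp (log2 1.06, limma adjusted p 0.00664) foremost. Of 25 replication fork genes 5 rose, led by Rpa2 (log2 0.83, limma adjusted p 0.000898) and Pole (log2 0.75, limma adjusted p 0.00263), and Pold2 fell (log2 -0.70, limma adjusted p 0.0315). Among dNTP synthesis genes Rrm2 (log2 0.75, limma adjusted p 0.0121) and Rrm1 (log2 1.15, limma adjusted p 0.0135), the ribonucleotide reductase subunits, rose and Dctd fell (log2 -1.72, limma adjusted p 6.31e-05). Of the E2F and G1/S cyclin genes 4 rose, led by Ccna2 (log2 1.28, limma adjusted p 3.74e-05) and E2f7 (log2 0.90, limma adjusted p 0.0175), and 3 fell, led by Ccnd2 (log2 -2.93, limma adjusted p 7.64e-09) and Ccnd3 (log2 -1.24, limma adjusted p 3.57e-05). In licensing control 1 of 11 rose, Dtl (log2 0.97, limma adjusted p 0.009), and 1 fell, Skp1 (log2 -1.04, limma adjusted p 0.00242). These 2 counts are near the shares of all genes and are read as no result about the list. Without the 8 steep libraries, which leaves 1 syngeneic library, 13 mitosis, 5 helicase activation, 4 replication fork, 5 dNTP synthesis, 1 E2F and G1/S cyclin and 2 licensing control genes rose, where 9% of all genes were called higher and 6.68% lower. The replication fork and licensing control lists then had 0 and 0 falling, so the falls of Pold2 and Skp1 were not called.

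In CD4 cells of Treg-treated against allogeneic recipients, 12 of 25 replication fork genes rose and none fell, with Rpa3 (log2 1.43, limma adjusted p 0.00662) and Clspn (log2 1.14, limma adjusted p 0.00739) at the lowest p. The list's median was 0.50, against -0.00 over all genes, of which 10.7% were called higher and 11.5% lower. Dut (log2 1.30, limma adjusted p 0.00739) had the lowest p of the 4 of 7 dNTP synthesis genes that rose. Orc6 (log2 1.10, limma adjusted p 0.00768) was the 1 of 6 origin recognition genes called. In helicase activation 4 of 13 rose, led by Gins2 (log2 1.22, limma adjusted p 0.00879) and Gins1 (log2 1.04, limma adjusted p 0.0239), and Recql4 fell (log2 -1.50, limma adjusted p 0.0424). In licensing control 3 of 11 rose, led by Fbxo5 (log2 0.74, limma adjusted p 0.00879), an inhibitor of the anaphase-promoting complex, and Skp1 (log2 1.02, limma adjusted p 0.00879), and 4 fell, led by Cul4a (log2 -0.93, limma adjusted p 0.0172) and Ddb1 (log2 -2.39, limma adjusted p 0.0185), subunits of the ligase that degrades Cdt1. Of the E2F and G1/S cyclin genes 3 of 16 rose, led by Ccnd2 (log2 1.29, limma adjusted p 0.00614) and Ccne2 (log2 1.01, limma adjusted p 0.00738). Of the mitosis genes 3 of 16 rose, led by Cdk1 (log2 1.19, limma adjusted p 0.00877) and Ube2c (log2 1.23, limma adjusted p 0.0132), and Bub1b fell (log2 -1.41, limma adjusted p 0.0222). The myeloid and erythroid sums of these CD4 groups given above stand beside these counts. In CD8 cells none of the genes of these lists was called. Without the 3 steep CD4 Treg-treated libraries, which leaves 1, no gene of these 7 lists was called in CD4 cells either, where 0.0418% of all genes were called higher and 0.0239% lower, and the median of the replication fork list was 0.33.

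In Treg after transplantation all 16 mitosis genes rose, led by Ccnb1 (log2 2.66, limma adjusted p 2.71e-08) and Ccnb2 (log2 2.58, limma adjusted p 3.65e-08), with a median of 2.37 against -0.07 over all genes. Of the replication fork genes 14 of 25 rose, led by Rfc5 (log2 1.48, limma adjusted p 4.82e-06) and Chaf1b (log2 1.33, limma adjusted p 1.47e-05), and of the dNTP synthesis genes 6 of 7, led by Rrm2 (log2 2.59, limma adjusted p 3.78e-08) and Tyms (log2 2.03, limma adjusted p 7.19e-05). Ccna2 (log2 2.79, limma adjusted p 7.77e-09) and Ccne1 (log2 2.03, limma adjusted p 2.19e-08) led the 9 of 16 E2F and G1/S cyclin genes that rose, and Cdc45 (log2 2.41, limma adjusted p 1.06e-07) and Gins2 (log2 1.78, limma adjusted p 0.000624) the 5 of 13 helicase activation genes. Orc1 (log2 1.23, limma adjusted p 0.0261) and Fbxo5 (log2 1.86, limma adjusted p 3.12e-07) were the single genes of the origin recognition and licensing control lists that rose. None of these 7 lists had a gene that fell, where 8.43% of all genes were called higher and 4.89% lower. Without the 8 steep libraries, none of which is in these groups, 10 helicase activation, 3 licensing control and 2 origin recognition genes rose, against 15.5% of all genes in that fit. Against CD8 cells of Treg-treated recipients, Treg were lower for 25 of 25 replication fork, 16 of 16 mitosis, 7 of 7 dNTP synthesis and 10 of 13 helicase activation genes. Against CD4 cells of Treg-treated recipients they were lower for 19, 12, 6 and 4 of the same lists. Without the 8 steep libraries these counts were 25, 16, 7 and 12 against CD8 and 11, 9, 6 and 4 against CD4 cells. Of all genes 18.7% and 16.1% were called lower with all libraries and 18.5% and 5.01% without the 8.

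Between CD8 and CD4 cells, 15 of 16 mitosis genes were higher in CD8 cells at day 0, 9 in allogeneic, 12 in Treg-treated and 0 in syngeneic recipients, where 2.22%, 3.05%, 4.9% and 4.98% of all genes were called higher. The replication fork list had 7, 18, 16 and 2 of 25 higher in these arms, and the dNTP synthesis list 5, 4, 2 and 1 of 7. Without the 8 steep libraries the counts in these arms were 16, 15, 3 and 0 for mitosis, 14, 20, 5 and 0 for the replication fork and 7, 6, 0 and 0 for dNTP synthesis, where 5.57%, 8.54%, 1.33% and 1.89% of all genes were called higher. The erythroid sums of the day 0 CD8 libraries given above stand beside the first of these counts.

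**Figure D5:**
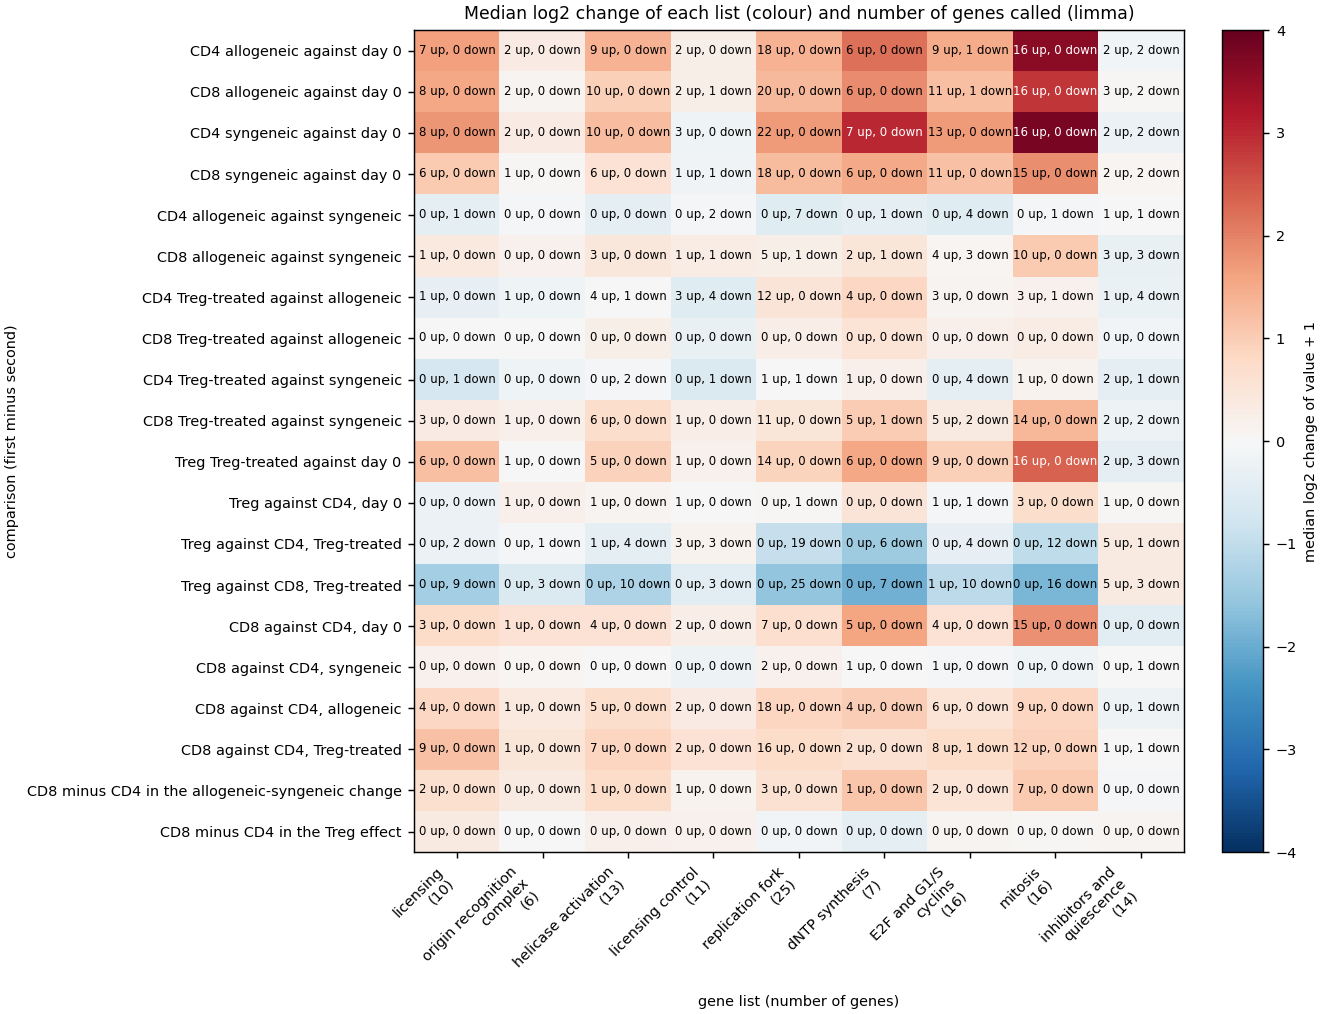
Median log2 change (colour, from -4 to 4) of the licensing genes and 8 other lists (columns) in the 20 comparisons (rows), with the number of genes called higher (up) and lower (down) written in each cell. The mitosis column is the darkest red against day 0, and the origin recognition column stays near white.

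The genes most like the members were ranked by Pearson's r over the 31 libraries with the mean of the members' standardised log2 values, among 15264 genes with a mean of at least 10. The first 5 were Nup62 (r 0.985), Uhrf1 (r 0.980), Tmpo (r 0.974), Ccnf (r 0.972) and Fen1 (r 0.967). Uhrf1 encodes a factor of maintenance DNA methylation, Fen1 the flap endonuclease of Okazaki fragment processing, Nup62 a nuclear pore protein, Tmpo a nuclear lamina-associated protein and Ccnf cyclin F. On deviations from the group means the first 4 were Mad1l1 (r 0.957), Ssrp1 (r 0.954), Suv39h1 (r 0.945) and Mthfd1 (r 0.943). The ranks are a description of these libraries, whose groups and length trends the genes share.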

How the data were processed

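RNA of donor T cells was extracted with TRizol and column cleanup, made into full-length cDNA with the SMARTer v4 kit and into libraries with Nextera XT, per the labels' protocols. The submitters' processing notes name FastQC 0.11.7, kallisto and DESeq2, and the builds GRCm38 and mm10, with no role or order. The authors deposited a signal, counts normalised between libraries (DESeq2 table columns per the file headers), for 16741 genes in 31 libraries. Low values showed no step that whole reads would give, so counts of reads and depth stay unknown. The T-cell receptor tables were not used here.

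Group means were fitted over all 31 libraries with limma 3.58.1 in R 4.3.3 (moderated variances, trend and robust options) on log2(value + 1), for genes with a mean of at least 1, which all had. The design had named a count test for counts and limma for normalised values. Benjamini-Hochberg adjustment ran over the 16741 genes of each of 20 comparisons, and genes with adjusted p under 0.05 were called. A log2 change on this scale understates changes of low genes. The fit was tested on simulated data. The members, lists and tests were chosen with earlier results of these data known. The 10 members were named in all comparisons, and of each other list up to 2 rising and 2 falling called genes with the lowest p in 5 comparisons (allogeneic against syngeneic, Treg-treated against allogeneic, and Treg against day 0). Some genes that the rules name are not reported here. Alternatives were the pseudocount, the filter, scaling, the library mean as covariate, array weights, only the groups compared, replicate blocks, leaving out each library, and 4 added after the data were seen. Gene spans and promoter windows are RefSeq's on GRCm38.p6, with spans for 15875 genes. Python 3.11.15 was used for the descriptions.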

Additional observations from a re-analysis of the deposited data

Results flagged for a closer look

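In 40 sets of 4 libraries (10 members in 4 groups), 10 had 1 library whose gap to the nearest other was over 0.829 of the range of the set, where chance gives about 1 in 20. The sets share libraries and are not independent. CD4 Treg-treated JL027-1 was the high library for Mcm2 at 5058 (others 2005 to 2434), Mcm4 at 9544 (others 2909.5 to 3693), Mcm5 at 8868 (others 4865 to 5369.98), Mcm7 at 7836 (others 4411 to 4936), Mcm10 at 1293 (others 523 to 650.1) and Cdc6 at 2791 (others 1415 to 1580.2). It is the 1 library of its group without a steep length trend. CD8 Treg-treated JL019-2 was the low library for Mcm4 at 4977 (others 12719.5 to 13871), Mcm5 at 6639.8 (others 17269.8 to 17855) and Mcm6 at 10231 (others 25351 to 27164), and its length trend was the steepest of all. CD4 allogeneic JL027-2 was high for Mcm7 at 7365 (others 6265 to 6300.4), and the other 3 were nearly equal.

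The change from syngeneic to allogeneic recipients differed between CD8 and CD4 cells by the test of the difference itself for Mcm10 (log2 1.63, limma adjusted p 0.0412) and Cdc6 (log2 1.26, limma adjusted p 0.0215). In CD4 cells 4 of 4 allogeneic libraries lay below the 3 syngeneic ones for Cdc6, and in CD8 cells 4 of 4 lay above them for Mcm10. The groups overlapped for Mcm10 in CD4 cells (834 to 1019.8 in allogeneic, 894 to 1662 in syngeneic libraries) and for Cdc6 in CD8 cells (2565 to 3704 and 2099 to 2591). Of the 10 members 0 passed this test without CD4 allogeneic JL019-1 and 0 without CD8 syngeneic JL027.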

How the results depend on the processing

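The values printed here are counts of the 10 members called, where a setting moved the count by over 1.5 times. With array weights (gene-by-gene estimator) the number of members called was 10 for CD8 syngeneic against day 0, 4 for CD4 allogeneic against syngeneic, 2 for CD8 allogeneic against syngeneic, 8 for CD4 Treg-treated against allogeneic, 10 for CD4 Treg-treated against syngeneic and 5 for CD8 Treg-treated against syngeneic. It was 10 for Treg Treg-treated against day 0, 2 for Treg against CD4, day 0, 4 for Treg against CD4, Treg-treated, 6 for CD8 against CD4, day 0, 1 for CD8 against CD4, syngeneic and 10 for CD8 against CD4, allogeneic. It was 4 for CD8 minus CD4 in the allogeneic-syngeneic change and 5 for CD8 minus CD4 in the Treg effect. With array weights by the default estimator, which did not converge and gave 1 library a weight of 113, it was 10 for CD8 syngeneic against day 0, 3 for CD4 allogeneic against syngeneic, 4 for CD8 allogeneic against syngeneic, 8 for CD4 Treg-treated against allogeneic, 10 for CD4 Treg-treated against syngeneic and 5 for CD8 Treg-treated against syngeneic. It was 10 for Treg Treg-treated against day 0, 2 for Treg against CD4, day 0, 6 for CD8 against CD4, day 0, 5 for CD8 against CD4, syngeneic, 10 for CD8 against CD4, allogeneic and 5 for CD8 minus CD4 in the allogeneic-syngeneic change. It was 5 for CD8 minus CD4 in the Treg effect. With the library mean as a covariate it was 3 for CD4 allogeneic against syngeneic, 2 for CD8 allogeneic against syngeneic, 0 for CD4 Treg-treated against allogeneic, 5 for CD8 Treg-treated against syngeneic, 10 for Treg Treg-treated against day 0 and 1 for Treg against CD4, day 0. It was 4 for Treg against CD4, Treg-treated, 1 for CD8 against CD4, syngeneic, 9 for CD8 against CD4, allogeneic and 4 for CD8 minus CD4 in the allogeneic-syngeneic change. On centring it was 10 for CD8 syngeneic against day 0 and 0 for CD4 Treg-treated against syngeneic. With only the groups compared in the model it was 5 for CD4 syngeneic against day 0, 2 for CD4 Treg-treated against allogeneic, 0 for CD4 Treg-treated against syngeneic, 0 for CD8 Treg-treated against syngeneic, 10 for Treg Treg-treated against day 0 and 1 for Treg against CD4, Treg-treated. It was 5 for CD8 against CD4, day 0, 7 for CD8 against CD4, allogeneic and 1 for CD8 against CD4, Treg-treated. After quantile normalisation it was 4 for CD8 against CD4, Treg-treated. Without 3 libraries picked by hand (CD4 syngeneic JL019-2, CD8 Treg-treated JL019-2 and CD8 syngeneic JL027) it was 10 for CD8 syngeneic against day 0, 2 for CD8 allogeneic against syngeneic, 4 for CD4 Treg-treated against allogeneic, 9 for CD4 Treg-treated against syngeneic and 8 for CD8 against CD4, allogeneic. Without the 8 libraries of steep length trend it was 4 for CD4 allogeneic against syngeneic, 2 for CD8 allogeneic against syngeneic, 0 for CD4 Treg-treated against allogeneic, 0 for CD4 Treg-treated against syngeneic, 1 for Treg against CD4, day 0 and 4 for Treg against CD4, Treg-treated. It was 6 for CD8 against CD4, day 0, 8 for CD8 against CD4, allogeneic and 1 for CD8 against CD4, Treg-treated. With the replicate label as a replicate block it was 4 for CD4 allogeneic against day 0, 3 for CD8 syngeneic against day 0, 0 for CD8 allogeneic against syngeneic, 4 for CD4 Treg-treated against syngeneic, 0 for CD8 Treg-treated against syngeneic and 1 for Treg against CD4, Treg-treated. With the recipient as a replicate block it was 1 for Treg against CD4, Treg-treated. The gene-by-gene weights replaced the default ones, and the rule on the length trend replaced the 3 libraries, after the counts of the replaced settings had been seen. The 3 libraries, the 8 libraries, the removal of the length trend and the default weights were added after the data were seen. Leaving out 1 library at a time gave 1 to 6 for CD8 syngeneic against day 0, 0 to 1 for CD4 allogeneic against syngeneic, 0 to 1 for CD8 allogeneic against syngeneic and 0 to 5 for CD4 Treg-treated against allogeneic. It gave 0 to 6 for CD4 Treg-treated against syngeneic, 1 to 3 for CD8 Treg-treated against syngeneic, 3 to 5 for Treg Treg-treated against day 0 and 1 to 2 for Treg against CD4, Treg-treated. It gave 1 to 1 for CD8 against CD4, day 0, 2 to 4 for CD8 against CD4, allogeneic, 4 to 9 for CD8 against CD4, Treg-treated and 0 to 2 for CD8 minus CD4 in the allogeneic-syngeneic change. With a pseudocount of 0.1, no filter, a mean of at least 10, the prefix as a replicate block or the length trend removed, every count stayed within 1.5 times of its value.

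Of 2870 log2 changes of single members under other settings, 2553 kept their side of the threshold, 69 lost and 247 gained a call, and 1 changed sign with a call, Mcm6 in Treg against CD4, Treg-treated, at -0.84 without the 8 libraries. Of those that kept their side, 110 changed sign without a call in either fit. Without 1 library, 1318 of 1450 kept their side, 109 lost and 23 gained a call and 62 changed sign uncalled. The causes were not tested. Where 1 library is left in a group it is assumed to vary like the others. Deviations of libraries that share a recipient label correlated at -0.32 to 0.44, 11 of 21 pairs over 0.1, and in 18 of 30 cases a library correlated best with its own label, and the median r of libraries sharing a label was 0.135, against 0.031 for other labels of the same prefix and -0.019 across prefixes. This is a hint from the data that the labels pair libraries. Since the labels do not state it and not every pair was over 0.1, the reported fit has no block. The unknown depth limits what low values show.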

Other observations

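The list of 14 cell cycle inhibitors and quiescence genes, which the account of the licensing genes leaves out, is given here as values. Against day 0, 2, 3, 2 and 2 rose and 2, 2, 2 and 2 fell in CD4 allogeneic, CD8 allogeneic, CD4 syngeneic and CD8 syngeneic cells, with median log2 changes of -0.12, 0.04, -0.23 and 0.07. Of all genes 14.4%, 16.3%, 9.9% and 13% were called higher and 9.61%, 14.2%, 3.13% and 11.3% lower, so nothing particular to the list is read from these counts. In CD8 cells of allogeneic against syngeneic recipients 3 rose and 3 fell, where 10.4% of all genes were called higher and 10.7% lower. Cdkn1a, which encodes the cyclin-dependent kinase inhibitor p21, rose (log2 2.71, limma adjusted p 0.000379), as did Ccng2 (log2 1.29, limma adjusted p 2.19e-06), and Btg1 (log2 -1.18, limma adjusted p 5.68e-05) and Cdkn2c (log2 -0.78, limma adjusted p 0.00789) fell. In CD4 cells Ccng2 rose (log2 0.59, limma adjusted p 0.0186) and Cdkn2c fell (log2 -0.79, limma adjusted p 0.00951), 1 of 14 each way, against 6.69% and 7.91% of all genes.

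In CD4 cells of Treg-treated against allogeneic recipients Cdkn2c rose (log2 0.76, limma adjusted p 0.0142) and 4 of 14 fell, where 10.7% of all genes were called higher and 11.5% lower, led by Rbl2 (log2 -1.86, limma adjusted p 0.0123), a pocket protein of the retinoblastoma family, and E2f4 (log2 -1.19, limma adjusted p 0.0153), a repressive E2F. Without the 3 steep CD4 Treg-treated libraries none of the 14 was called. In Treg after transplantation 2 rose, Cdkn2c (log2 1.39, limma adjusted p 0.000246) and Cdkn1a (log2 3.46, limma adjusted p 0.000279), and 3 fell, led by Btg2 (log2 -0.996, limma adjusted p 0.00239) and Klf2 (log2 -1.54, limma adjusted p 0.00365), where 8.43% of all genes were called higher and 4.89% lower. Without the 8 steep libraries, none of which is in these groups, 3 rose and 6 fell, against 15.5% and 9.09% of all genes in that fit. Cdkn1a stood at 159 before and 1585 after transplantation on average.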
